A study of Mus musculus with 5 samples.

Results

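Chromosome 12 of the mouse carried 3993 macroH2A1.2-GFP enriched regions, counted over 4 samples, of 195585 on all chromosomes (2.04%). They are all regions called on this chromosome in 3T3-L1 cells, namely 712 and 699 in the 2 pre-adipocyte samples and 1260 and 1322 in the 2 mature samples. The chromosome was selected on measured values. Of 20 chromosomes it had the lowest density of protein-coding genes, 5.36 per Mb (643 genes on 120.0 Mb, GENCODE M21 on mm10), and the third lowest mean share of its length covered by regions, 3.45%, after X with 0.938% and 7 with 1.17%. These values describe how it was chosen and carry no test.

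MacroH2A1.2 is a splice variant of the histone macroH2A1, which takes the place of H2A in nucleosomes and carries a large globular macro domain. MacroH2A is known for broad domains on the inactive X chromosome and in silent, gene-poor chromatin, and it is generally low over the promoters of active genes. Chromosome 12 holds the imprinted Dlk1-Dio3 cluster, the immunoglobulin heavy chain locus and a cluster of Serpina protease inhibitor genes. Dlk1 (also called Pref-1) is made by pre-adipocytes and holds back fat cell formation.

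3T3-L1 cells are mouse fibroblasts of an established line that can become adipocytes, and all cells here had been transduced with a lentivirus for macroH2A1.2 fused to GFP, so the regions are those of the introduced, tagged protein. Pre-adipocytes (2 replicates) were collected before differentiation, and mature adipocytes (2 replicates) after it, induced 2 days after confluence by a cocktail of IBMX, dexamethasone and insulin that the labels give for 60 h, while the methods refer to a longer protocol and speak of mouse adipose tissue in the paragraph on chromatin. Chromatin was digested with MNase and precipitated with an anti-GFP antibody, and 1 library made without antibody served as control for every sample. Conditions come from the sample titles, which the description fields of both mature samples contradict by naming the state before differentiation. The description field of the control likewise goes against its title, by naming GFP, an anti-GFP antibody and the same state, and every fold enrichment and control read count here rests on the title. Nothing says whether replicates came from separate cultures, so p-values measure only the spread between samples, which may be technical. No expression was measured, so marker genes of the cell types could not be checked. The scaling inside the deposited fold enrichment gives library size relative to the control, which was 1.20 and 0.549 for pre-adipocytes (replicate 1, then 2) and 1.23 and 1.21 for mature adipocytes. Pre-adipocyte replicate 2 was the shallow sample, and pre-adipocyte replicate 1 alone matched the mature samples in depth. Where 4 values are given below they follow this order.

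Regions of chromosome 12 rarely reached promoters, and the promoters shown here are examples of those they did and did not reach. RefSeq promoters (GRCm38.p6, from 250 bases before to 50 bases after the start) were found for 532 of the 643 protein-coding genes, giving 657 windows of 300 bases. Of these, 28 (4.26%, against 12.4% on other chromosomes) were overlapped by a region in at least 1 sample, and none lay inside a region in all 4 samples (0.443% elsewhere). The overlapped promoters had a median of 6.50 CpG dinucleotides and a GC content of 51.2%, compared with 18.0 and 59.3% in the 629 promoters that no region touched. A CpG count of at least 10 was found in 35.7% of the overlapped and 71.4% of the other promoters. On the other chromosomes the same shares were 40.4% and 60.8%. The sequences below were picked after their values were seen, and CpG dinucleotides (the letters CG, which read the same on both strands) are in capitals. The first is a promoter inside regions of both pre-adipocyte samples, that of Pgf (chr12:85175933-85176232, minus strand), which encodes placental growth factor of the VEGF family.
Pgf: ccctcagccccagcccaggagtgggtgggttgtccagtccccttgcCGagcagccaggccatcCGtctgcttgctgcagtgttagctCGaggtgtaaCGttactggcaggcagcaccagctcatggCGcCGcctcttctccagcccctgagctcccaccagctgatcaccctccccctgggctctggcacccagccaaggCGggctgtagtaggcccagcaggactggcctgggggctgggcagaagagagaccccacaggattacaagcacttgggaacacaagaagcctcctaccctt
The next pair lay inside regions of both mature samples. Cdhr3 (chr12:33092826-33093125, minus strand) encodes a cadherin-related membrane protein and Kif26a (chr12:112145958-112146257, plus strand) a kinesin-like protein.
Cdhr3: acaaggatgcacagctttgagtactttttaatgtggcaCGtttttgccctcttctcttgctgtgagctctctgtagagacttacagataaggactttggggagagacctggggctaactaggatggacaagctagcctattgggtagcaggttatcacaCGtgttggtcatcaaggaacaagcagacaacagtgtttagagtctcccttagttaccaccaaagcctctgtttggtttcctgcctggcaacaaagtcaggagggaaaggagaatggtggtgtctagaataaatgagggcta
Kif26a: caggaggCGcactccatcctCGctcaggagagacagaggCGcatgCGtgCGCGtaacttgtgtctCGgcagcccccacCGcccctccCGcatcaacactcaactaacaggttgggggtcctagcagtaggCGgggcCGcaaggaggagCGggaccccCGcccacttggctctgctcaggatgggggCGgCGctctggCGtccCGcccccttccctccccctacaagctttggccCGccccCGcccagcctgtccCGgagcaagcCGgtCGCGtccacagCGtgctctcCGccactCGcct
In all 4 samples, regions contained the promoters of Gm40287 (chr12:15606083-15606382, plus strand) and Gm51973 (chr12:70746538-70746837, plus strand), with a GC content of 37.0% and 28.0%. Neither symbol is among the protein-coding genes of GENCODE M21, and their gene type was not examined.
Gm40287: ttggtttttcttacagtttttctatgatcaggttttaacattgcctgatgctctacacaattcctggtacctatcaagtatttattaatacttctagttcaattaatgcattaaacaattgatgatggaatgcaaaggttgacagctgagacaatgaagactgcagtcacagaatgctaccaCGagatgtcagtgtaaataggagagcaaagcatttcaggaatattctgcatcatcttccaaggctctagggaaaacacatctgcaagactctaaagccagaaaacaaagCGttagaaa
Gm51973: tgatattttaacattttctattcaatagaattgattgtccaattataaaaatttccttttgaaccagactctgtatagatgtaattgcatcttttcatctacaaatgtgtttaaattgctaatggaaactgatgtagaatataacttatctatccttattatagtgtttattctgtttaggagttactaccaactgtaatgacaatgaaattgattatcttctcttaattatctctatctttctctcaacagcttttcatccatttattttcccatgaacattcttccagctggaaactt
For contrast, the promoter of Odc1 (chr12:17544623-17544922, plus strand), the gene of ornithine decarboxylase, was touched in no sample.
Odc1: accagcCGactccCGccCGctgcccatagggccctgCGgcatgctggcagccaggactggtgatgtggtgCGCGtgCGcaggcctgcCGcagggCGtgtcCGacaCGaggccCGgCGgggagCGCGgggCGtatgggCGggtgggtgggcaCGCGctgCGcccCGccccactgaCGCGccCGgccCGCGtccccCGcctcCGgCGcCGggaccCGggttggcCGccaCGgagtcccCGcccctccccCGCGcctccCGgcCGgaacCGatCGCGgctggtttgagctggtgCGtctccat
These windows hold 7 CpG in Pgf, 2 in Cdhr3, 26 in Kif26a, 2 in Gm40287, 0 in Gm51973 and 42 in Odc1. The Pgf window lay in regions with a fold enrichment of 1.64 (183 ChIP and 93 control reads) and 2.26 (62 and 50 reads) in pre-adipocytes, where 42.9% and 34.1% of the gene body was covered, compared with 0% and 1.49% in mature adipocytes. Kif26a had regions of 1.85 (75 ChIP and 33 control reads) and 2.65 (83 and 26 reads) in the mature samples.

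The share of chromosome 12 covered by regions was 3.87% and 1.84% in pre-adipocytes and 3.99% and 4.09% in mature adipocytes. Averaged over replicates, pre-adipocytes reached 2.86% ± 1.43 (SD, n = 2) and the mature samples 4.04% ± 0.0721 (SD, n = 2). This difference of 1.18 percentage points is smaller than the SD of the pre-adipocytes (two-sided exact permutation test, p = 0.333, the smallest p that 2 samples against 2 allow). The low value belonged to the shallow sample. Without replicate 2 of pre-adipocytes the difference was 0.169, and without replicate 1 it was 2.19. As a share of each sample's own covered length, chromosome 12 had 1.66% and 1.59% in pre-adipocytes and 1.63% and 1.72% in mature adipocytes, and the conditions overlapped (exact permutation test, p = 0.667).

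Both mature samples had more regions on the chromosome than both pre-adipocyte samples. Their number was 706 ± 9.19 (SD, n = 2) before and 1291 ± 43.8 (SD, n = 2) after differentiation. The difference of 585.5 regions is above the SD of either condition, although the exact permutation test cannot go below its p of 0.333. Over the genome the numbers moved in the same direction, from 36468 and 38546 in pre-adipocytes to 59375 and 61196 in mature adipocytes, and whether chromosome 12 differed from this was not tested. In the depth-matched samples the median length was 5400 bp in replicate 1 of pre-adipocytes, against 3200 and 3000 bp in mature adipocytes. Replicate 2 of pre-adipocytes had a median of 2800 bp, so the order of lengths was not that of the conditions. The median fold enrichment was 1.47 and 1.88 in pre-adipocytes and 1.61 and 1.62 in mature adipocytes, so the mature values fell inside the range of the pre-adipocyte pair (exact permutation test, p = 1.00). On the other chromosomes it was 1.62, 2.01, 1.80 and 1.82 in the same order of samples, higher than on chromosome 12 in each.

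Reads behind these regions were counted for both ChIP and control. Chromosome 12 regions held 155785, 44067, 178446 and 182279 ChIP reads and 89958, 44059, 93241 and 96925 control reads. Per kb of called region this came to 33.6, 19.9, 37.3 and 37.2 ChIP reads, and to 19.4, 19.9, 19.5 and 19.8 control reads. The control value was nearly the same in all 4 samples and slightly above that on the other chromosomes, 18.5, 19.3, 18.5 and 18.6 reads per kb. ChIP reads per kb stayed below the other chromosomes in every sample (35.3, 20.4, 39.5 and 39.4).

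**Figure D1:**
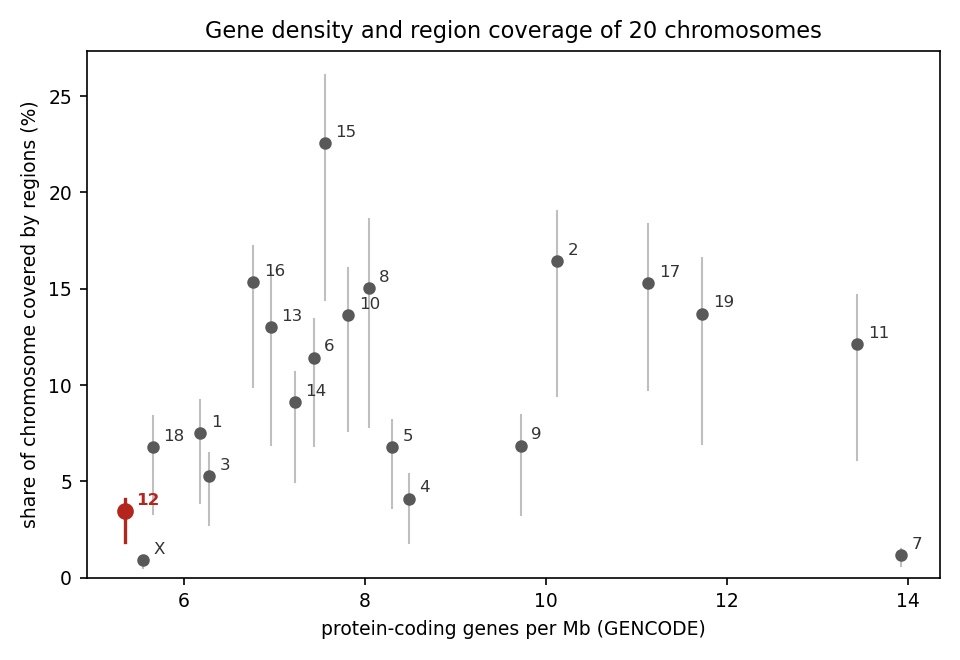
Gene density (protein-coding genes per Mb, horizontal axis) and share of the chromosome covered by macroH2A1.2-GFP regions (percent, vertical axis) for 20 chromosomes, with points at the mean of 4 samples and lines from the lowest to the highest sample. Chromosome 12, in red, sits at 5.36 genes per Mb and 3.45%, at the left edge and near the bottom, while X (5.55 genes per Mb) and 7 (13.9 genes per Mb) are lower.

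Within the chromosome, coverage was uneven between windows. Cutting it into 1 Mb windows from the first annotated gene or region gave 118 windows, the last of which is only partly within the chromosome. A region was present in all 4 samples in 70 windows, in 1 to 3 samples in 22 and in none in 26 (22.0% of windows, rank 4 from the highest of 20 chromosomes). The 30 windows with the highest mean coverage held 80.1%, 75.1%, 78.2% and 79.7% of all covered bases of the chromosome. They lay in many separate stretches between 8 and 120 Mb, and the same share was not computed for other chromosomes. The median window was covered to 1.07%, 0.470%, 1.09% and 1.34%. Windows ranked alike in all samples, with a Spearman rho over 118 windows of 0.850 between the pre-adipocyte replicates, 0.973 between the mature replicates and 0.841 to 0.918 between conditions. These coefficients are descriptions, because windows share libraries, neighbouring sequence and the control.

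The most covered window ran from 9 to 10 Mb and holds 2 protein-coding genes, Ttc32 and the transcription factor gene Osr1, neither of which had a region in its body in any sample. It was covered to 39.9%, 21.9%, 25.3% and 31.4%, with 47, 50, 54 and 59 regions. These held 14209, 4544, 9945 and 12208 ChIP reads against 8393, 4924, 5590 and 6827 control reads, and their median fold enrichment was 1.40, 1.78, 1.51 and 1.54. The window was thus the top of the chromosome by length covered and not by enrichment. Next came the window from 35 to 36 Mb with 26.0%, 14.4%, 23.0% and 17.7%, which holds Ahr, the gene of the aryl hydrocarbon receptor, beside Snx13, Agr2 and Agr3. The window from 16 to 17 Mb followed with 30.1%, 11.9%, 15.8% and 19.2%. It holds Lpin1, encoding the phosphatidate phosphatase lipin 1 of triglyceride synthesis, whose body was reached in mature replicate 2 alone (85 ChIP and 24 control reads, fold enrichment 2.94). The windows from 70 to 71 Mb and from 10 to 11 Mb completed the 5 highest, with means of 16.1% and 16.0% over the samples.

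The 5 least covered windows that had any region held 1 region each, in 1 sample. In 4 of them (13 to 14, 27 to 28, 38 to 39 and 117 to 118 Mb) it belonged to the shallow replicate 2 of pre-adipocytes, and in the other (59 to 60 Mb) to replicate 1 of mature adipocytes. Coverage in that sample was between 0.120% and 0.360%, from 34 to 58 ChIP reads. The developmental transcription factor genes Sox11 and Etv1 start in windows of this kind.

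Empty windows lay singly or in runs of 2 or 3. Only uniquely mapping reads were kept by the authors, and how far such windows, the immunoglobulin locus included, can be mapped was not examined. The longest runs were at 5 to 8 Mb, with 2 protein-coding genes, and at 18 to 21 Mb, with 3 protein-coding genes among 95 annotated genes of any type. The windows from 88 to 90 Mb hold the first part of Nrxn3, the gene of the synaptic adhesion protein neurexin 3, which spans 1612 kb and had no region in any sample. The nearest region to it was 531 kb away. The windows from 114 to 116 Mb hold 173 annotated genes and no protein-coding gene, most of the immunoglobulin heavy chain locus, in which none of 217 annotated Igh segments had a region. These segments are short, with a median length of 0.434 kb. Without replicate 2 of pre-adipocytes, 31 windows were empty and 72 had a region in each of the other 3 samples.

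Occupied windows had more protein-coding genes than empty ones, but the most covered windows did not have the most. The median number of protein-coding genes starting in a window was 1.0 in the 26 empty windows, 2.0 in the 22 windows with a region in 1 to 3 samples and 6.0 in the 70 with a region in all 4. No protein-coding gene started in 10 of the empty windows (38.5%) and in 7 of those occupied in all samples (10.0%). Ordered by mean coverage and split into 4 classes of 29 or 30 windows, from the lowest to the highest, the medians were 1.0, 5.0, 7.0 and 4.5. The class with the highest coverage averaged 5.90 genes per window compared with 8.34 in the class below it. Over all windows the Spearman rho between coverage and gene number was 0.381, 0.290, 0.353 and 0.336 in the 4 samples. Among windows that had a region it was 0.0435, 0.00594, 0.0215 and -0.0689. The positive values over all windows were thus not seen once empty windows were set aside. Counting annotated genes of every type the mean over samples was 0.124, and with the share of the window inside protein-coding genes it was 0.246, against 0.340 for protein-coding starts.

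**Figure D2:**
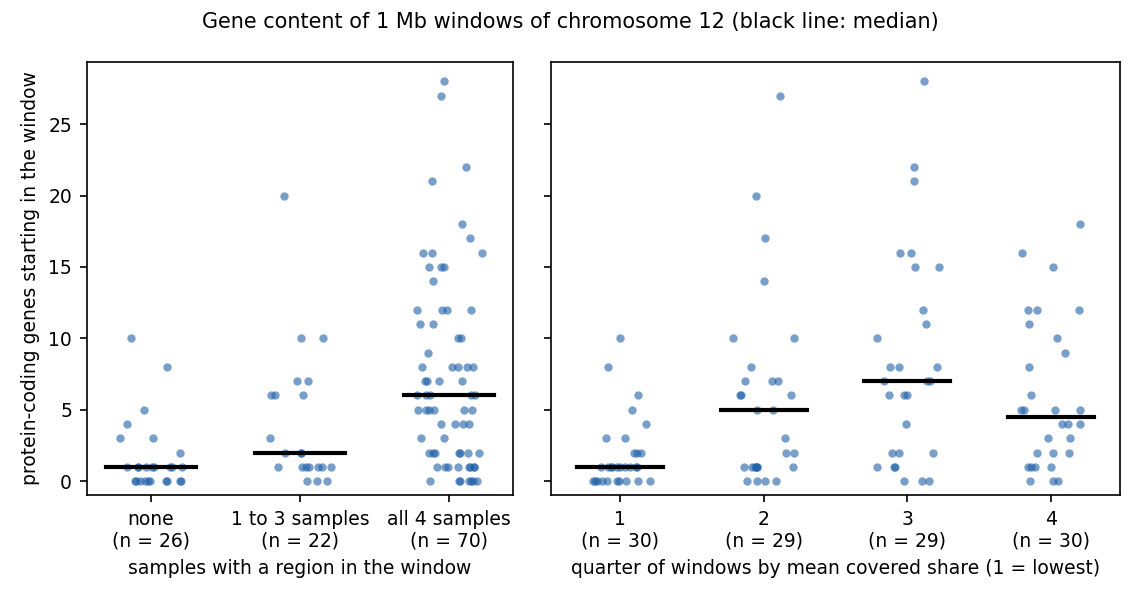
Number of protein-coding genes starting in each 1 Mb window of chromosome 12 (points), by the number of samples with a region in the window (left) and by 4 classes of mean covered share (right, 1 = lowest), with the median as a black line. The median is 1.0 in empty windows and 6.0 in windows occupied in all 4 samples, and it is 7.0 in class 3 but 4.5 in class 4.

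Control reads moved with coverage among windows with regions. Per kb of called region they were 16.5, 18.0 and 20.1 in classes 2, 3 and 4 of coverage and 21.8 in the window from 9 to 10 Mb. Class 1, in which 26 of 30 windows were empty, broke this order with 18.5. Across windows with regions the Spearman rho between coverage and control reads per kb was 0.443, 0.320, 0.465 and 0.603 in the 4 samples, and that between coverage and median fold enrichment was -0.343, -0.292, -0.282 and -0.417. More covered windows thus had regions with more control reads and lower enrichment. The part of the control in their coverage was not tested. A region in replicate 2 of pre-adipocytes in the window from 3 to 4 Mb stood apart, with 155 control reads and 153 ChIP reads, or 64.6 control reads per kb.

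**Figure D3:**
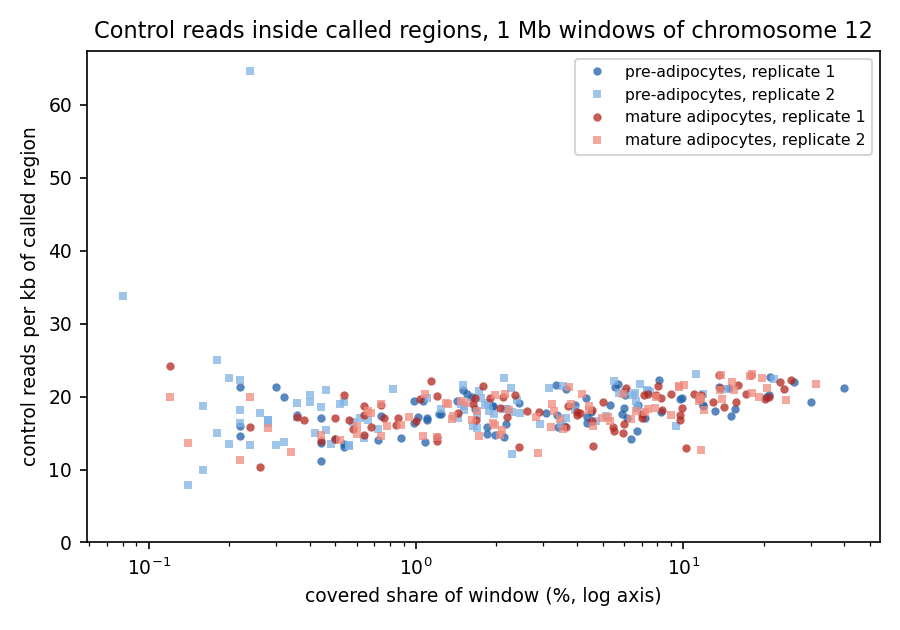
Control reads per kb of called region (vertical axis) against the covered share of each 1 Mb window of chromosome 12 (percent, log axis), 1 point per window and sample. Most points lie between 10 and 25 reads per kb and drift upward to the right, and 1 point of replicate 2 of pre-adipocytes stands at 64.6.

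Between conditions, coverage of both mature samples was above both pre-adipocyte samples in 41 of the 92 windows with any region (44.6%), compared with 42.0% of 2144 such windows on all chromosomes. The reverse was seen in 5 windows (5.43%, against 6.62% on all chromosomes). Both shares lie near those of the whole genome. Relative to each sample's own genome-wide coverage, a scaling chosen after the data were seen, 27 windows (29.3%, against 31.1%) were higher in mature adipocytes and 20 (21.7%, against 26.7%) in pre-adipocytes. The balance of directions on the chromosome therefore depended on the scaling. Without replicate 1 of pre-adipocytes the unscaled counts were 66 and 17 of 92 windows, and without replicate 2 they were 44 and 25 of 87. Setting 1 sample against 2 makes non-overlap easier to reach. Shares over all chromosomes were not computed with a sample left out, so these counts have no background beside them.

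The largest difference was in the window from 34 to 35 Mb, nearly all of which (87.1%) lies in protein-coding genes, chiefly Hdac9, a class IIa histone deacetylase. It was covered to 6.04% and 1.50% in pre-adipocytes and to 23.9% and 20.5% in mature adipocytes, with 7 and 4 regions against 48 and 51. The conditions did not overlap, and replicate 1 of pre-adipocytes lay at about the depth of the mature samples. Scaled to genome-wide coverage the mature samples were still higher in this window. The median fold enrichment of its regions was 1.40 and 1.57 in pre-adipocytes and 1.53 and 1.52 in mature adipocytes. Both mature values thus lay above replicate 1 of pre-adipocytes and below replicate 2, the shallow sample, which had 4 regions here.

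The next largest was from 32 to 33 Mb, with 11.5% and 6.08% in pre-adipocytes and 21.0% and 24.3% in mature adipocytes. This window holds Pik3cg, the gene of a catalytic PI3-kinase subunit, and Nampt, the gene of the enzyme that salvages nicotinamide for NAD synthesis. Nampt itself had no region in any sample. From 119 to 120 Mb, where the integrin gene Itgb8 and Macc1 lie, coverage was 5.70% and 3.56% in pre-adipocytes and 13.6% and 18.1% in mature adipocytes. The adjacent windows from 94 to 96 Mb hold 1 protein-coding gene, Flrt2, and had 11.8% and 6.71% in pre-adipocytes and 16.6% and 17.6% in mature adipocytes. These windows too remained higher in mature adipocytes relative to genome-wide coverage.

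Of the 5 windows higher in pre-adipocytes, that from 8 to 9 Mb had a wide difference, with 15.1% and 5.14% in pre-adipocytes and 5.02% and 4.44% in mature adipocytes. It lies beside the most covered window and holds 10 genes, among them Rhob, Sdc1 and Laptm4a. The lowest pre-adipocyte value was only just above the highest mature value. The window from 69 to 70 Mb, with 21 genes that include those of the ribosomal proteins Rps29 and Rpl36al, had 1.84% and 1.96% against 0.760% and 1.48%. The others (113 to 114, 30 to 31 and 44 to 45 Mb) had 1 region in each pre-adipocyte sample and none in mature adipocytes.

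**Figure D4:**
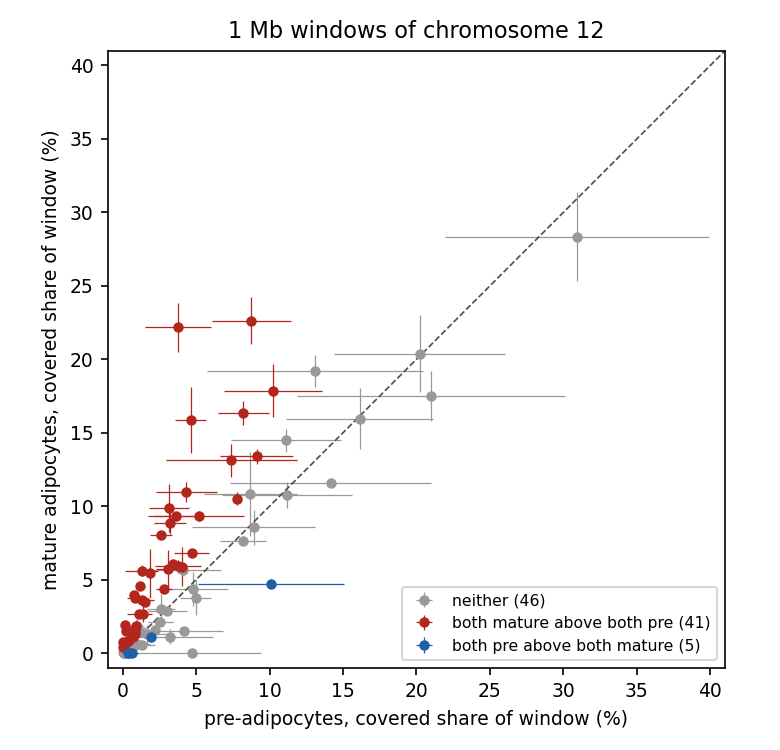
Covered share of 1 Mb windows of chromosome 12 in pre-adipocytes (horizontal axis, percent) and mature adipocytes (vertical axis, percent), with points at the mean of 2 replicates, lines over the range of the replicates and a dashed line of equality. The 41 windows with both mature samples above both pre-adipocyte samples are red, and those with means of 22.2% and 22.6% in mature adipocytes are the Hdac9 window and the window from 32 to 33 Mb, while the window from 9 to 10 Mb lies at the upper right near the line.

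Genes were overlapped less often on chromosome 12 than elsewhere in every sample, a description of the low coverage on which the chromosome was selected. A region lay in the body of 8.71%, 8.24%, 12.4% and 14.0% of its 643 protein-coding genes, compared with 17.6%, 15.2%, 22.3% and 22.2% of the 21112 genes on other chromosomes. In all 4 samples 28 genes had a region (4.35%, against 10.2% elsewhere), and 35 had one in each of the 3 samples that remain without the shallow one. By gene length the 28 were 0 of 177 genes under 10 kb, 7 of 256 genes of 10 to 50 kb (2.73%), 13 of 166 genes of 50 to 200 kb (7.83%) and 8 of 44 genes of 200 kb or more (18.2%). On other chromosomes the shares in these classes were 2.67%, 8.65%, 21.5% and 37.4%. The share thus rose with length there too. In at least 1 sample, 125 of the 643 genes had a region (19.4%, against 30.4% elsewhere). A start site was covered in all 4 samples in none of the 643 genes, compared with 134 of 21112 elsewhere (0.635%).

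Regions lay in genes more often in both mature samples than in both pre-adipocyte samples. Of the region midpoints on chromosome 12, 14.9% and 17.0% fell in a protein-coding gene in pre-adipocytes and 24.0% and 23.6% in mature adipocytes, while 34.7% of the chromosome lies in such genes. The means were 16.0% ± 1.51 (SD, n = 2) and 23.8% ± 0.316 (SD, n = 2), a difference of 7.87 percentage points above the SD of either condition (exact permutation test, p = 0.333, the smallest possible). Hdac9 alone held 7 and 4 midpoints in pre-adipocytes and 48 and 49 in mature adipocytes, and without it the difference was 5.56 percentage points. On the other chromosomes the shares were 27.8% and 26.6% in pre-adipocytes and 28.9% and 29.0% in mature adipocytes. Whether the difference on chromosome 12 exceeded that elsewhere was not tested. The median distance from a midpoint to the nearest protein-coding start was 98.0, 107, 95.9 and 96.8 kb, and 60.3, 70.5, 59.6 and 60.5 kb elsewhere.

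A region in both mature samples and in neither pre-adipocyte sample was found in 16 genes (2.49%, against 3.07% of 21755 genes in the genome). The reverse was found in none, against 0.450% in the genome. With replicate 2 of pre-adipocytes left out these became 23 and 5, the latter Agr2, Nrcam, Ccdc177, Flrt2 and Gpr132. Absence from that shallow sample thus touched this count, and the genome's shares were not computed without it. Of the 16, Efcab10 was covered to 19.8% and 50.9% of its body, Lrrc9 to 9.90% and 23.4% and Pygl to 8.57% and 5.90% in replicates 1 and 2 of mature adipocytes. Pygl encodes the liver form of glycogen phosphorylase. The nearest region to Pygl was 0.312 kb away in replicate 1 of pre-adipocytes, so its absence there rests on a short distance.

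In the imprinted Dlk1-Dio3 cluster, 2 of 7 genes had a region in all 4 samples, against 4.35% of all protein-coding genes of the chromosome. The sets are unlike, since the 7 include non-coding genes, and Rian, 1 of the 2, is non-coding. Rtl1, a paternally expressed gene derived from a retrotransposon (chromosome 12 from 109589193 to 109600330, minus strand), was covered to 41.3%, 38.9%, 46.1% and 44.3% of its 11.1 kb. It had 1 region in each sample, with 156, 101, 251 and 304 ChIP reads, 83, 124, 122 and 184 control reads and fold enrichments of 1.56, 1.48, 1.68 and 1.37. Rtl1 was thus among the most evenly covered genes named here, at a low enrichment. Rian, a maternally expressed non-coding RNA, was covered to 21.1%, 9.69%, 31.8% and 28.4%, with the shallow sample lowest. Meg3, the non-coding RNA next to Dlk1, had a region in replicate 1 of pre-adipocytes (14.3%) and replicate 2 of mature adipocytes (12.1%). Dlk1, Dio3 (the thyroid hormone inactivating deiodinase), Mirg and Begain had none. The nearest region to Dlk1 was 1.02 kb away in replicate 1 of pre-adipocytes, and 12.1, 51.3 and 79.6 kb away in the others. Of the 146 annotated miRNA genes of the chromosome, many of them in this cluster, 15 (10.3%) were overlapped in at least 1 sample and none in all 4. The shares of protein-coding genes of the chromosome were 19.4% and 4.35%. The sets are unlike in length, with medians of 0.0805 kb and 25.7 kb. Several of the 15 lie within a few kb of each other and were covered in the same sample. The share of miRNA genes on other chromosomes was not computed.

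Of 24 genes of lipid, adipose and insulin metabolism, 1 had a region in all 4 samples (4.17%, near the 4.35% of all protein-coding genes of the chromosome). That gene, Pik3cg, was covered to 19.3%, 9.66%, 6.82% and 37.5%, with the mature replicates at the lowest and the highest value. The list as a whole had a region in 2 and 2 genes in pre-adipocytes (8.33% in each, against 8.71% and 8.24% of all genes of the chromosome) and in 5 and 6 of the 24 in mature adipocytes (against 12.4% and 14.0% of all genes), and most of the genes touched in mature adipocytes were touched in 1 sample. Adcy3, Lpin1 and Acot4 were touched in mature replicate 2 alone, and Ncoa1, Hif1a and Acot5 in mature replicate 1 alone. In all, 9 of the 24 had a region in some sample (37.5%, against 19.4%), and those without one include Apob, Akt1, Dnmt3a, Nampt and Dio2.

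Of 22 developmental transcription factor and cofactor genes, 2 had a region in all 4 samples (9.09%, against 4.35% of all genes of the chromosome). They are Hdac9 and Npas3, both of the length class of 200 kb or more, in which the share was 18.2%. Hdac9 (chromosome 12 from 34047580 to 34917095, minus strand, 870 kb) was covered to 6.95% and 1.73% in pre-adipocytes and to 27.4% and 23.0% in mature adipocytes. Its regions held 1969 and 280 ChIP reads and 1225 and 323 control reads in pre-adipocytes, and 9113 and 7852 ChIP reads and 5015 and 4321 control reads in mature adipocytes. The conditions did not overlap in covered share, and the gene is a corepressor of MEF2 factors and not itself a DNA-binding factor. Pax9, a paired box gene, was covered to 57.1%, 0%, 43.8% and 19.0%, with the shallow sample at 0. Twist1, Osr1, Sox11, Meox2, Ahr and Foxa1 had no region in any sample.

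Many of the 19 neuronal, adhesion and channel genes are long, with a median of 280 kb over the list. Of the 19, 4 had a region in all samples (21.1%, against 4.35% of all genes and 18.2% of genes of 200 kb or more). Akap6, which anchors protein kinase A, was covered to 5.26%, 6.80%, 6.27% and 6.84%, nearly alike in all 4. Kcnh5, a voltage-gated potassium channel gene, was covered to 8.14%, 6.21%, 11.1% and 9.42%. Nova1, a splicing factor gene, was covered to 1.77% and 2.80% in pre-adipocytes and to 12.7% and 4.73% in mature adipocytes. Immp2l, which encodes a mitochondrial peptidase subunit and no neuronal protein, was covered to 1.31%, 1.48%, 5.41% and 2.83%. For Kcnh5, Nova1 and Immp2l both mature samples were above both pre-adipocyte samples. The same direction was seen in 42.0% of windows with any region on all chromosomes. The share over all genes was not computed.

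Serpina genes, with a median length of 9.72 kb, had a region in 3 of 23 cases (13.0%, against 19.4% of all genes of the chromosome in any sample). They are Serpina9, Serpina12 and Serpina3b, none of them touched in the shallow sample. No region overlapped any of 10 housekeeping genes, which include Hsp90aa1, Yy1, Rrm2 and Odc1, in any sample, against the same 19.4%. Their median length was 16.9 kb, against 25.7 kb for all protein-coding genes of the chromosome. The listed symbols Psmc6 and Ndufb1 were not matched on chromosome 12 in the annotation and were not counted. Outside the lists, and chosen after their values were seen, Slc25a21 (a mitochondrial oxodicarboxylate carrier gene) was covered to 15.0%, 6.52%, 28.4% and 30.3%, Itgb8 to 8.67%, 3.47%, 32.7% and 37.9%, and Galnt16 to 20.1%, 6.92%, 32.3% and 29.1%. All had higher coverage in both mature samples than in both pre-adipocyte samples. Of windows with any region on all chromosomes, 42.0% had this direction and 6.62% the reverse, and the shares over all genes were not computed. Kif26a went the other way, with 10.7% and 7.88% against 2.23% and 2.23%, although its promoter was reached in mature adipocytes.

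**Figure D5:**
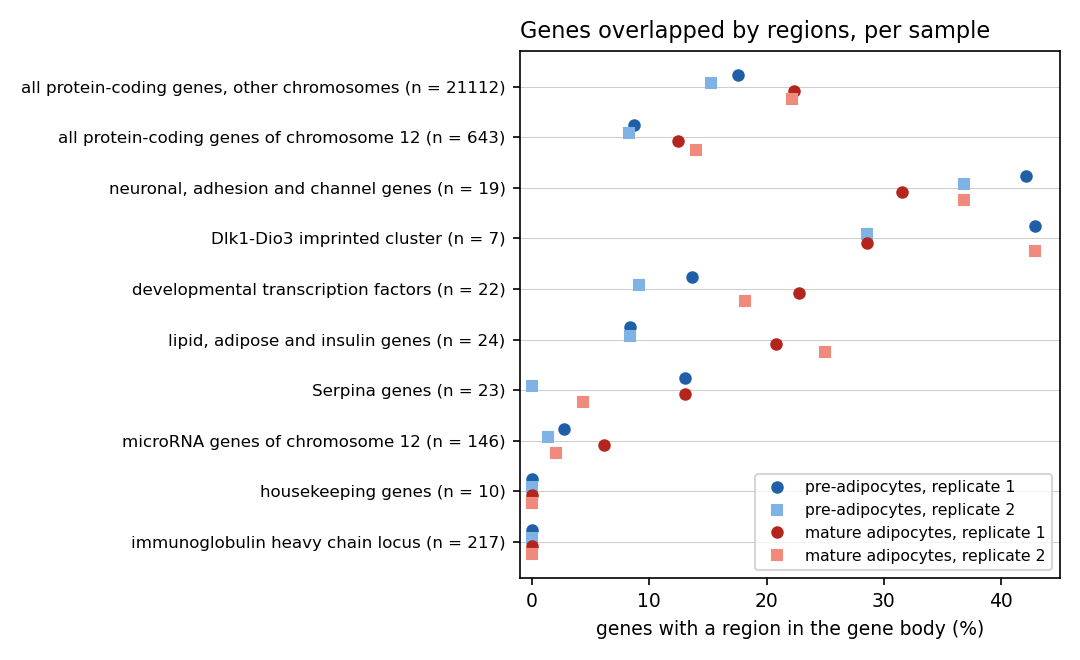
Share of genes with a region in the gene body (percent, horizontal axis) for each gene list, 1 point per sample. Neuronal, adhesion and channel genes and the Dlk1-Dio3 cluster lie between 28.6% and 42.9%, above all protein-coding genes of chromosome 12 (8.24% to 14.0%), while housekeeping genes and the immunoglobulin heavy chain locus are at 0. The Dlk1-Dio3 list includes non-coding genes, and the immunoglobulin segments have a median length of 0.434 kb.

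Merging overlapping regions of the 4 samples gave 1999 regions on chromosome 12, of which 162 (8.10%) were called in all samples, compared with 20.8% elsewhere. A single sample held 1072 of them (53.6%, against 40.8% elsewhere). Both mature samples alone held 262 (13.1%, against 12.9% of all 62927 merged regions), and both pre-adipocyte samples alone held 39 (1.95%, against 1.62%). These shares lie near the genome's. The longest merged region, 44800 bp from 73513801 to 73558600 over Tmem30b and the non-coding 2210039B01Rik, consisted of 2, 3, 7 and 5 separate calls with 1416, 170, 1019 and 690 ChIP reads. The second longest (10506001 to 10546000) lay 135229 bp from the nearest protein-coding start, that of Rdh14. Elsewhere in the genome the longest reached 354800 bp. The region with the highest mean fold enrichment among those called in all samples (69477801 to 69481400, 103427 bp from the start of Vcpkmt) had 3.02, 4.06, 1.81 and 3.22, from 138, 49, 98 and 66 ChIP reads.

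The density of ChIP reads in the 162 regions called in all samples was compared between conditions with edgeR's quasi-likelihood test, fitted on all 12857 such regions of the genome. None of the 162 passed an adjusted p of 0.05 (edgeR, Benjamini-Hochberg over all regions), and 11 regions passed in the genome (0.0856%). At an unadjusted p under 0.05 there were 17 on chromosome 12 (10.5%, compared with 9.15% of all regions tested), 5 of them higher in mature adipocytes. DESeq2 gave 4 (2.47%, compared with 1.69% of all regions). The median log2 fold change, mature against pre-adipocytes, was -0.06 on chromosome 12 and -0.00066 over all regions, and single regions ranged from -0.58 to 0.66. The smallest p in favour of mature adipocytes was in Flvcr2 from 85777601 to 85784600, with 175, 54, 160 and 46 ChIP reads over 7000, 3800, 4000 and 800 bp called (log2 fold change 0.66, SE 0.19, edgeR adjusted p = 0.174). In favour of pre-adipocytes it was from 16345201 to 16370200, with 715, 232, 588 and 747 reads over 16400, 9400, 14200 and 19600 bp (log2 fold change -0.30, SE 0.083, edgeR adjusted p = 0.169). The fit without replicate 1 of pre-adipocytes leaves 1 sample in that condition, so only effect sizes are given for it. Among regions picked after that fit, the log2 fold change was -0.86 (SE 0.22) at 17590001 to 17597000. It was -1.16 (SE 0.23) at 35635001 to 35644600. In the latter, replicate 2 of pre-adipocytes had 57 reads over 1400 bp called, against 299 and 329 reads over 8600 and 9000 bp in mature adipocytes. Only regions called in every sample entered, and the length term of the fit was each sample's own called length, which limits how large a difference can be.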

How the data were processed

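Alignment by the authors was to mm10 with Bowtie 1.1.2, with unique hits of at most 2 mismatches retained. Picard served to discard duplicates, and SICER 1.1 called regions in each sample separately (versions from the submitters' processing notes). Uniquely mapping reads leave repeated sequence without calls. The deposited tables hold, for each region, the raw counts of ChIP and control reads, a p-value and an FDR from the authors' SICER run, and a fold enrichment, the ratio of these counts scaled by the authors to library size. The methods give an FDR of 1%, and every deposited region had an FDR below 0.001. The control has no table of its own among the files analysed here, and total library sizes were not analysed here.

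All else was computed from these tables. Covered share was the called length, on a grid of 200 bp, divided by the length up to the last annotated base of each chromosome, since no genome sequence was used here and assembly gaps were not removed. Reads were assigned to 1 Mb windows by region midpoint. Genes came from GENCODE M21 and promoters from RefSeq. Values per sample were compared by two-sided exact permutation tests. ChIP counts of merged regions called in all 4 samples were tested with edgeR 4.0.16 (quasi-likelihood, TMM, offset of log called length, Benjamini-Hochberg), with DESeq2 1.42.0 as an alternative. Scripts were tested on simulated data. R 4.3.3, scipy 1.17.1, pandas 2.3.3, numpy 2.4.6 and Python 3.11.15 were used. Alternatives covered the FDR (at most 1e-05), the fold enrichment (at least 2), regions overlapping the other replicate by at least 1 bp, window size, gene counting, normalization and each left-out replicate.

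The chromosome, the gene lists and the tests were chosen with earlier results of these data known. Genes named are those of 7 fixed lists. Windows named are the 5 most and 5 least covered, the empty ones, and up to 5 per direction with the largest difference between conditions without overlap. Regions named are the longest, the most enriched and those with the smallest edgeR p. Other genes were named after their values were seen, and some members of the lists are not reported here by name.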

Additional observations from a re-analysis of the deposited data

How the results depend on the processing

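The direction of the difference in covered share and in number of regions was the same under all alternatives tried, but with a fold enrichment of at least 2 the differences were 0.131 percentage points and 72 regions (exact permutation test, p = 1.00 in both). Keeping regions with a fold enrichment of at least 2 turned the difference in the share of covered length to -0.0454 percentage points and that in median fold enrichment to 0.0159, with p = 1.00 in both (exact permutation test). Leaving out each replicate gave a median fold enrichment difference between -0.269 and 0.148, the positive value without replicate 2 of pre-adipocytes. It gave a covered share difference between 0.169 and 2.19 percentage points, a difference in the share of covered length between 0.00137 and 0.0961, and a difference of 554.5 to 616.5 regions. Windows higher in mature adipocytes numbered 15 with a fold enrichment of at least 2, 27 of 2 Mb each, 27 relative to genome-wide coverage, and 44 to 66 with each replicate left out. Windows higher in pre-adipocytes numbered 3 at an FDR of at most 1e-05, 10 with regions overlapping the other replicate, 8 of 500 kb each, 1 of 2 Mb, 20 relative to genome-wide coverage, and 8 to 25 with each replicate left out. Counts of windows of another size are not over the same number of windows. Apart from the scaling to genome-wide coverage, shares over all chromosomes were not computed under these alternatives. The mean rho between coverage and gene number was 0.289 for 500 kb windows, 0.418 for 2 Mb windows, 0.124 for all annotated genes, 0.246 for bases inside protein-coding genes, and 0.326 to 0.356 with each replicate left out. The causes were not tested.

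No region of chromosome 12 passed the test under the other settings that kept all 4 samples. Counts passing in fits with a replicate left out are not given here. With the replicate number as a block the number on chromosome 12 remained at 0, and over the genome 27 regions passed in place of 11. Over the settings that kept all 4 samples the genome's number was 0 to 27. Deviations of same-numbered samples had a correlation of 0.00775. With 2 samples in each condition, this value cannot show whether same-numbered samples shared a culture or a batch. Each fit with a replicate left out keeps 1 sample in a condition, which is assumed to vary like the other condition. Merged regions called in every sample numbered 266 without replicate 2 of pre-adipocytes, against 162. Assembly gaps could not be removed, and the annotated span was used instead, with a covered share difference of 1.21 percentage points. The depth of that replicate limits what absence of a region can show, and reads at a looser FDR were not analysed here.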
